A study of Homo sapiens with 32 samples.

Results

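The 42 genes described here encode proteins that build ribosomes or reside in the nucleolus. They were listed by name for that function, out of 48804 genes listed in the count table. By their known roles they fall into 5 groups, namely RNA polymerase I (Pol I) transcription with 6 genes, small nucleolar ribonucleoproteins (snoRNPs) with 8, assembly of the small (40S) subunit with 10, assembly of the large (60S) subunit with 12, and abundant or multi-role nucleolar proteins with 6. RNA-seq was performed on MDA-MB-468, an established basal-like triple-negative breast cancer (TNBC) cell line, grown as monolayers in flasks. The cells received PBS (control), 0.5 µM salinomycin (Sal, a polyether antibiotic), 15 µM dasatinib (Das, a Src kinase inhibitor) or both drugs together (S + D, given on the labels as 15.5 µM in total), each for 24 or 72 h. All conditions used the same cell line in the same serum-containing medium, and each drug was given at a single dose, so no dose dependence could be examined. Each of the 8 conditions had 4 libraries from biological replicates, of which 3 carry a replicate number and 1 does not, which gave 32 libraries.

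Ribosome production starts in the nucleolus, where Pol I copies the repeated ribosomal DNA into one long precursor RNA. Small nucleolar RNAs, held in box C/D and box H/ACA snoRNPs, guide the chemical modification and cleavage of that precursor. The small subunit processome and a succession of large subunit particles then fold, trim and export the maturing subunits with the help of helicases, GTPases and scaffold proteins. Many of these genes are known targets of the transcription factor MYC, and fast-growing cancer cells usually express them strongly. Ribosomal RNA itself was not measured here, and the levels below are those of the messenger RNAs of the assembly factors.

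MYC and its partner MAX are known to bind the palindromic E-box CACGTG, so the promoters of the 42 genes were searched for these letters, which read the same on both strands. RefSeq promoter windows of build GRCh38.p14, running from 250 bases before to 50 bases after an annotated start, were matched by symbol for 36 of the 42 genes. The E-box was present in 16 of the 36, or 44.4%, against 8.77% of all 27305 genes with a window and 7.26% of all 35116 windows. It lay within 50 bases of a start in 15 of them. Among the genes with a window, the E-box was found in 6 of 12 that were higher with Sal at 72 h, 6 of 14 that were lower and 4 of 10 that were not called, so the share was 50%, 42.9% and 40% respectively. Genes of the 2 directions therefore carried it at similar shares, as a description without a test. In other lists of the pathway the share was 39.5% for other 40S assembly genes (15 of 38) and 26.3% for other 60S assembly genes (10 of 38). For other snoRNP and other Pol I genes it was 12.5% each (1 of 8 in both). The nuclear exosome had 8.33% (1 of 12), the cytosolic ribosomal proteins 6.56% (4 of 61) and the proliferation markers 37.5% (3 of 8). The last 100 bases before the start are shown for UTP20 and UTP4, which fell with Sal at 72 h, and the last 100 bases with the first base of the gene for RRP9, which rose. They are printed 5′ to 3′ on the strand of the gene with the E-box in capitals, from chr12:101280005-101280104 (plus strand), chr16:69132549-69132648 (plus strand) and chr3:51941904-51942004 (minus strand).
UTP20: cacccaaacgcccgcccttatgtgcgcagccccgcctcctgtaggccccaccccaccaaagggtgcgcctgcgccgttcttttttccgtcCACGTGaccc
UTP4: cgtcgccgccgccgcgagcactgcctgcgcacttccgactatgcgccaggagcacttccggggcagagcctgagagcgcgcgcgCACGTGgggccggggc
RRP9: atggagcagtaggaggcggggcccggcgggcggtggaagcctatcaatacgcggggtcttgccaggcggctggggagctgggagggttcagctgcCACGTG

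The libraries held 25692561 to 42769687 counts each, and all 42 genes passed the filter on low counts at both times. EGFR, EPCAM, CDH1, KRT5 and KRT17 were detected in all libraries as markers of the basal-like line, with EGFR at 2790 to 5920 CPM (counts per 1e+06 counts), KRT5 at 28 to 915 CPM and KRT17 at 7.68 to 236 CPM, while PGR was at most 0.0895 CPM and the blood cell marker PTPRC at most 0.132 CPM. KRT5 fell at 72 h with Sal (log2 fold change -3.61), Das (-2.33) and S + D (-2.38), and S + D also lowered EGFR (-0.67) and raised KRT17 (1.87). ESR1 was at 3.64 to 12 CPM, and ERBB2 at 56.8 to 192 CPM. The muscle marker DES was at most at 0.192 CPM. COL1A1, a fibroblast marker, was at 18.2 to 120 CPM and rose at 72 h with Sal (log2 fold change 1.22) and S + D (1.62), and the part of these marker changes in the results was not tested. The 8 unnumbered libraries deviated together from their groups (Pearson's r of their deviations across genes 0.690 to 0.762 at 24 h and 0.633 to 0.724 at 72 h), and the labels do not say how they were prepared. The unnumbered Sal library at 24 h stood farther from the control than the numbered ones, and replicate 3 of Das at 72 h stayed near the control, with the summed level of 10 proliferation markers at 2252 CPM against 790 to 1230 CPM in the other Das libraries. The summed level of these markers at 72 h was 2220.0 ± 84.4 CPM in control, 464 ± 127 CPM with Sal and 357 ± 72.8 CPM with S + D (mean ± SD, n = 4). With Das at 72 h this sum was 1292 ± 667 CPM. MYC was also lower at 72 h, from 149 ± 24.8 CPM in control to 20.8 ± 1.2 after Sal, 67.1 ± 22 after Das and 29.3 ± 1.65 after S + D. With Das at 24 h the marker sum was 1671 ± 133 CPM against 3474 ± 211 CPM in control. MYC then stood at 131 ± 10.3 CPM with Das and 133 ± 10.5 CPM in control. With Sal and S + D at 24 h both the marker sum and MYC lay below the control. Neither the part of MYC nor that of proliferation in the changes below was tested. In RNA from whole cultures, fewer cells that express a gene and less RNA of it per cell cannot be told apart.

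In untreated cells the 42 genes took a small share of all counts, 0.684 ± 0.0273% at 24 h and 0.597 ± 0.0268% at 72 h. Treatment for 72 h left the share at 0.624 ± 0.0422% for Sal, 0.559 ± 0.0479% for Das and 0.603 ± 0.0448% for S + D, each within 2 SD of the control mean. At 24 h the share was 0.656 ± 0.0141% for Sal, 0.609 ± 0.0275% for Das and 0.643 ± 0.0247% for S + D. All Das libraries at 24 h (0.571 to 0.636%) lay below all controls of that time (0.645 to 0.709%). Divided by transcript length, the nucleolar proteins NPM1 (426 ± 49.4 CPM per kb), NCL (347 ± 46.1) and FBL (251 ± 5.48) were the highest of the 42 genes in control cells at 72 h. The Pol I subunits stood far lower, with 8.46 ± 0.707 CPM per kb for POLR1A and 8 ± 0.748 for POLR1B, which did not differ beyond their SD. The lowest levels per length were those of UTP20 (3.8 ± 0.501 CPM per kb) and BOP1 (1.32 ± 0.11). BOP1 had only 24 to 280 counts in a library, and 83.9% of its exon bases are repeated with 98.842 to 99.758% identity by a second stretch of the same chromosome in GRCh37. Reads that fit both places may have been lost before counting, so its level is uncertain. Between the 2 control groups 1 of the 42 genes was called, with NOP2 lower at 72 h (log2 fold change -0.48 ± 0.09 SE, adjusted p = 0.000635), while 2.76% of all genes tested were called. Without the unnumbered control library at 72 h the count was 2, and in numbered libraries alone 7 genes were called, all lower, beside 11% of all genes called in either direction.

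With Sal for 72 h genes of the group were called in 2 directions, as were all genes tested. By the quasi-likelihood test of edgeR, with p-values adjusted by Benjamini-Hochberg over all 16682 genes and a gene called below 0.01, 15 of the 42 genes fell and 15 rose. The background was 26.8% of all genes tested lower and 26.3% higher. The shares among the 42 were somewhat above the background in both directions, a difference that was not tested, and the median log2 fold change of the 42 was -0.04 beside 0.004 over all genes. At the cutoffs of the study, which also ask for a log2 fold change beyond 1.5 in either direction, 6 genes passed against 18.7% of all genes. These were UTP20 (log2 fold change -2.96), BOP1 (-2.01), BYSL (-1.75), WDR12 (-1.51), PPAN (1.57) and RRP12 (2.35). S + D for 72 h gave a similar division, with 14 genes lower and 15 higher against 27.9% and 27% of all genes, and 5 past both cutoffs against 20.2%. Of the 42 genes, 13 fell with both treatments, 15 rose with both, and none was called in opposite directions, where 23.7%, 21.7% and 0.0374% of the 16052 genes tested at both times did so. Sal and S + D were set against the same 4 control libraries, so this count is not independent evidence for either. Over the 6 comparisons of a drug with its control, 19 genes were called lower and never higher, 17 higher and never lower, none in both directions, and 6 in no comparison (DDX10, DDX21, NOP14, NOP58, POLR1C and WDR43). Over all genes tested at both times these shares were 34.1%, 32.7%, 1.55% and 31.7%, so that calls in both directions were rare everywhere.

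**Figure D1:**
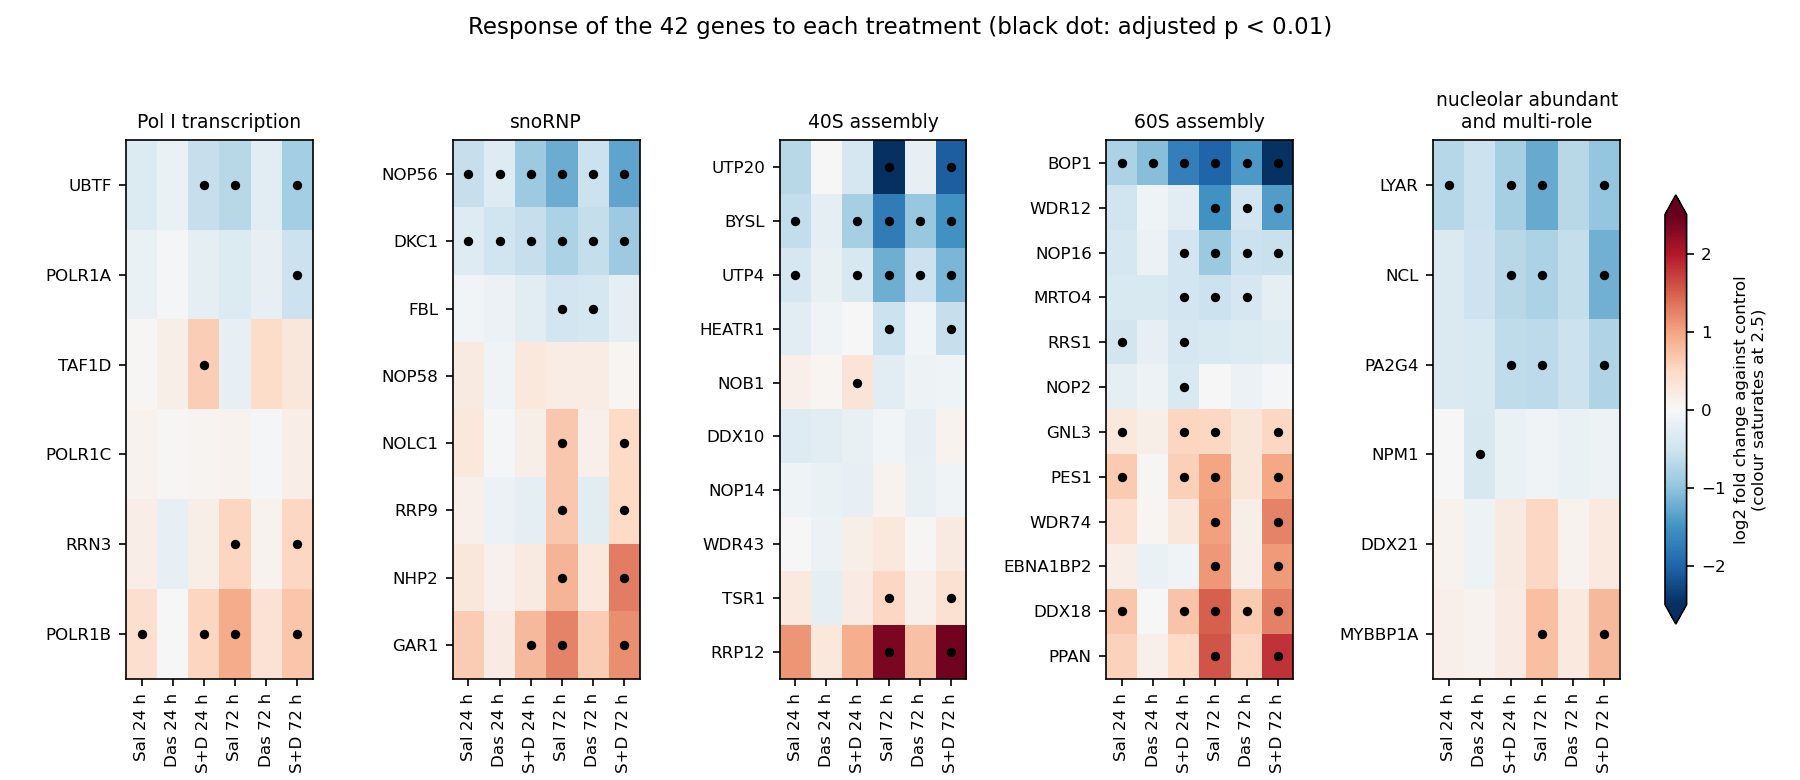
Log2 fold changes of the 42 genes against the control of the same time point, by role, with colour for the log2 fold change and a black dot for an adjusted p under 0.01. Each role group holds genes that fell and genes that rose with Sal at 72 h, and no gene was called in both directions.

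The genes of Pol I transcription were divided at 72 h. UBTF, which binds the ribosomal DNA promoter, was at 149, 151, 154 and 123 CPM in the control libraries (numbered replicates 1 to 3, then the unnumbered one, as in all such series here), 98.7, 89.7, 92.5 and 80.0 after Sal, 113, 112, 161 and 90.7 after Das and 84.3, 87.2, 84.6 and 66.2 after S + D. All Sal and S + D libraries lay below all controls, while the highest Das library, replicate 3, exceeded every control. UBTF fell with Sal (log2 fold change -0.70 ± 0.15 SE, adjusted p = 0.000581) and with S + D (log2 fold change -0.86 ± 0.15 SE, adjusted p = 7.81e-05), and was not called with Das (-0.28). POLR1B, the second-largest Pol I subunit, was at 64.1, 58.8, 52.9 and 65.1 CPM in control, 110.5, 119.8, 119.8 and 113 after Sal, 90.1, 91.1, 55.1 and 75.8 after Das and 91.3, 102, 97.4 and 102 after S + D. It moved the other way, with no overlap of control and Sal or S + D libraries. The rise was a log2 fold change of 0.93 ± 0.13 SE with Sal (adjusted p = 9.37e-06) and of 0.69 ± 0.13 SE with S + D (adjusted p = 0.000181). RRN3, which brings Pol I to the promoter, was at 55, 53.2, 51.4 and 52.3 CPM in control, 75.5, 83.7, 78.8 and 72.4 after Sal, 61.6, 66.3, 50.9 and 48.8 after Das and 83.7, 76.4, 71.1 and 75.2 after S + D. RRN3 rose with Sal (log2 fold change 0.53 ± 0.11 SE, adjusted p = 0.000275) and with S + D (log2 fold change 0.52 ± 0.11 SE, adjusted p = 0.000362), again without overlap. TAF1D, a subunit of the promoter factor SL1, was at 82.5, 84.8, 75.9 and 82.9 CPM in control, 71.8, 82.7, 82.6 and 48.8 after Sal, 115, 122, 88 and 124 after Das and 116, 92.3, 91.8 and 102 after S + D. The Das libraries all exceeded the controls, yet TAF1D was called with none of the treatments at 72 h (log2 fold change -0.21 for Sal, 0.45 for Das and 0.28 for S + D). POLR1A, the largest Pol I subunit, fell with S + D (log2 fold change -0.54 ± 0.13 SE, adjusted p = 0.00122) and had -0.35 with Sal, below the call. POLR1C, which Pol I shares with Pol III, was called nowhere.

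Of the 8 snoRNP genes, 4 rose and 3 fell with Sal at 72 h. FBL, the methyltransferase of box C/D snoRNPs, was at 276, 282, 283 and 291 CPM in control, 218, 194, 194 and 216 after Sal, 199, 197, 209 and 235 after Das and 314, 220.0, 218 and 227 after S + D. All Sal and Das libraries were below the controls, and replicate 1 of S + D was above them. FBL fell with Sal (log2 fold change -0.48 ± 0.11 SE, adjusted p = 0.00144) and Das (log2 fold change -0.44 ± 0.11 SE, adjusted p = 0.00739) and was not called with S + D (-0.23). NOP56, a scaffold of the same particles, was at 174, 182, 179 and 231 CPM in control, 79.4, 77.6, 72.8 and 97.9 after Sal, 106, 117, 162 and 144 after Das and 79.7, 73.4, 73.9 and 83.5 after S + D. NOP56 was lower in every treated library than in every control. It fell 2.36-fold with Sal (log2 fold change -1.24 ± 0.14 SE, adjusted p = 9.23e-07), 1.45-fold with Das (log2 fold change -0.54 ± 0.14 SE, adjusted p = 0.00668) and 2.49-fold with S + D (log2 fold change -1.32 ± 0.14 SE, adjusted p = 4.29e-07). Its partner NOP58 had 0.18, 0.18 and 0.05 and was not called. Among box H/ACA proteins, DKC1, the pseudouridine synthase, fell with Sal (-0.80), Das (-0.59) and S + D (-0.90).

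GAR1 and NHP2, which bind DKC1 in box H/ACA particles, rose instead. GAR1 was at 29.4, 30.5, 26.1 and 25.9 CPM in control, 64.5, 71.8, 72.8 and 58 after Sal, 52.3, 59.4, 25.9 and 37.2 after Das and 78.9, 57.6, 59 and 57.3 after S + D. Sal and S + D libraries all exceeded the controls, as did all Das libraries but replicate 3. The rise of GAR1 was a log2 fold change of 1.24 ± 0.19 SE with Sal (adjusted p = 2.77e-05) and of 1.16 ± 0.19 SE with S + D (adjusted p = 5.19e-05). NHP2 rose with Sal (log2 fold change 0.85 ± 0.19 SE, adjusted p = 0.000972) and S + D (log2 fold change 1.28 ± 0.20 SE, adjusted p = 2.07e-05), although 28% of its exon bases are shared with RMND5B on the other strand and the use of strand in counting is not given. The 2 remaining genes were RRP9, which is specific to the U3 particle, and NOLC1, a nucleolar chaperone of snoRNPs. Both rose with Sal (RRP9 0.68, NOLC1 0.67) and with S + D (RRP9 0.49, NOLC1 0.50).

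The largest fall and the largest rise of the whole group with Sal at 72 h were both found in 40S assembly. UTP20 (chr12:101673883-101780396, plus strand, GRCh37), a large scaffold of the small subunit processome, was at 35.6, 32.6, 29.1 and 39.8 CPM in control, 3.4, 4.15, 5.56 and 4.75 after Sal, 22.3, 24.6, 44.5 and 27.6 after Das and 6.69, 9.61, 8.35 and 8.45 after S + D. The Sal and S + D libraries lay far below all controls, and those of Das overlapped them. UTP20 fell 7.76-fold with Sal (log2 fold change -2.96 ± 0.22 SE, adjusted p = 1.62e-08) and 4.19-fold with S + D (log2 fold change -2.07 ± 0.21 SE, adjusted p = 2.21e-07), and was not called with Das (-0.21). RRP12 (chr10:99116115-99185833, minus strand, GRCh37), which takes part in export of pre-ribosomal particles, was at 37.8, 39.6, 46.2 and 45.4 CPM in control, 245, 198, 196 and 234 after Sal, 101, 75.8, 28.4 and 76.6 after Das and 226, 227, 229 and 225 after S + D. Each Sal and S + D library was more than 4 times the highest control. RRP12 rose 5.1-fold with Sal (log2 fold change 2.35 ± 0.25 SE, adjusted p = 4.23e-07) and 5.3-fold with S + D (log2 fold change 2.41 ± 0.25 SE, adjusted p = 2.86e-07), and had 0.73 with Das, below the call. BYSL, needed for late 40S maturation, fell with Sal (-1.75), Das (-0.95) and S + D (-1.51). UTP4, an early processome protein, fell with the same treatments (-1.22, -0.53 and -1.15). HEATR1, which joins UTP4 in linking Pol I transcription to processing, fell with Sal (-0.54) and S + D (-0.59), and 23.1% of its exon bases are shared with LGALS8 and a non-coding gene. TSR1, a late 40S factor with 26.9% of its exon bases shared with SRR and a non-coding gene, rose with Sal (0.52) and S + D (0.39). WDR43, NOP14 and the helicase DDX10 were called in no comparison with a control, and the endonuclease NOB1 in none at 72 h.

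**Figure D2:**
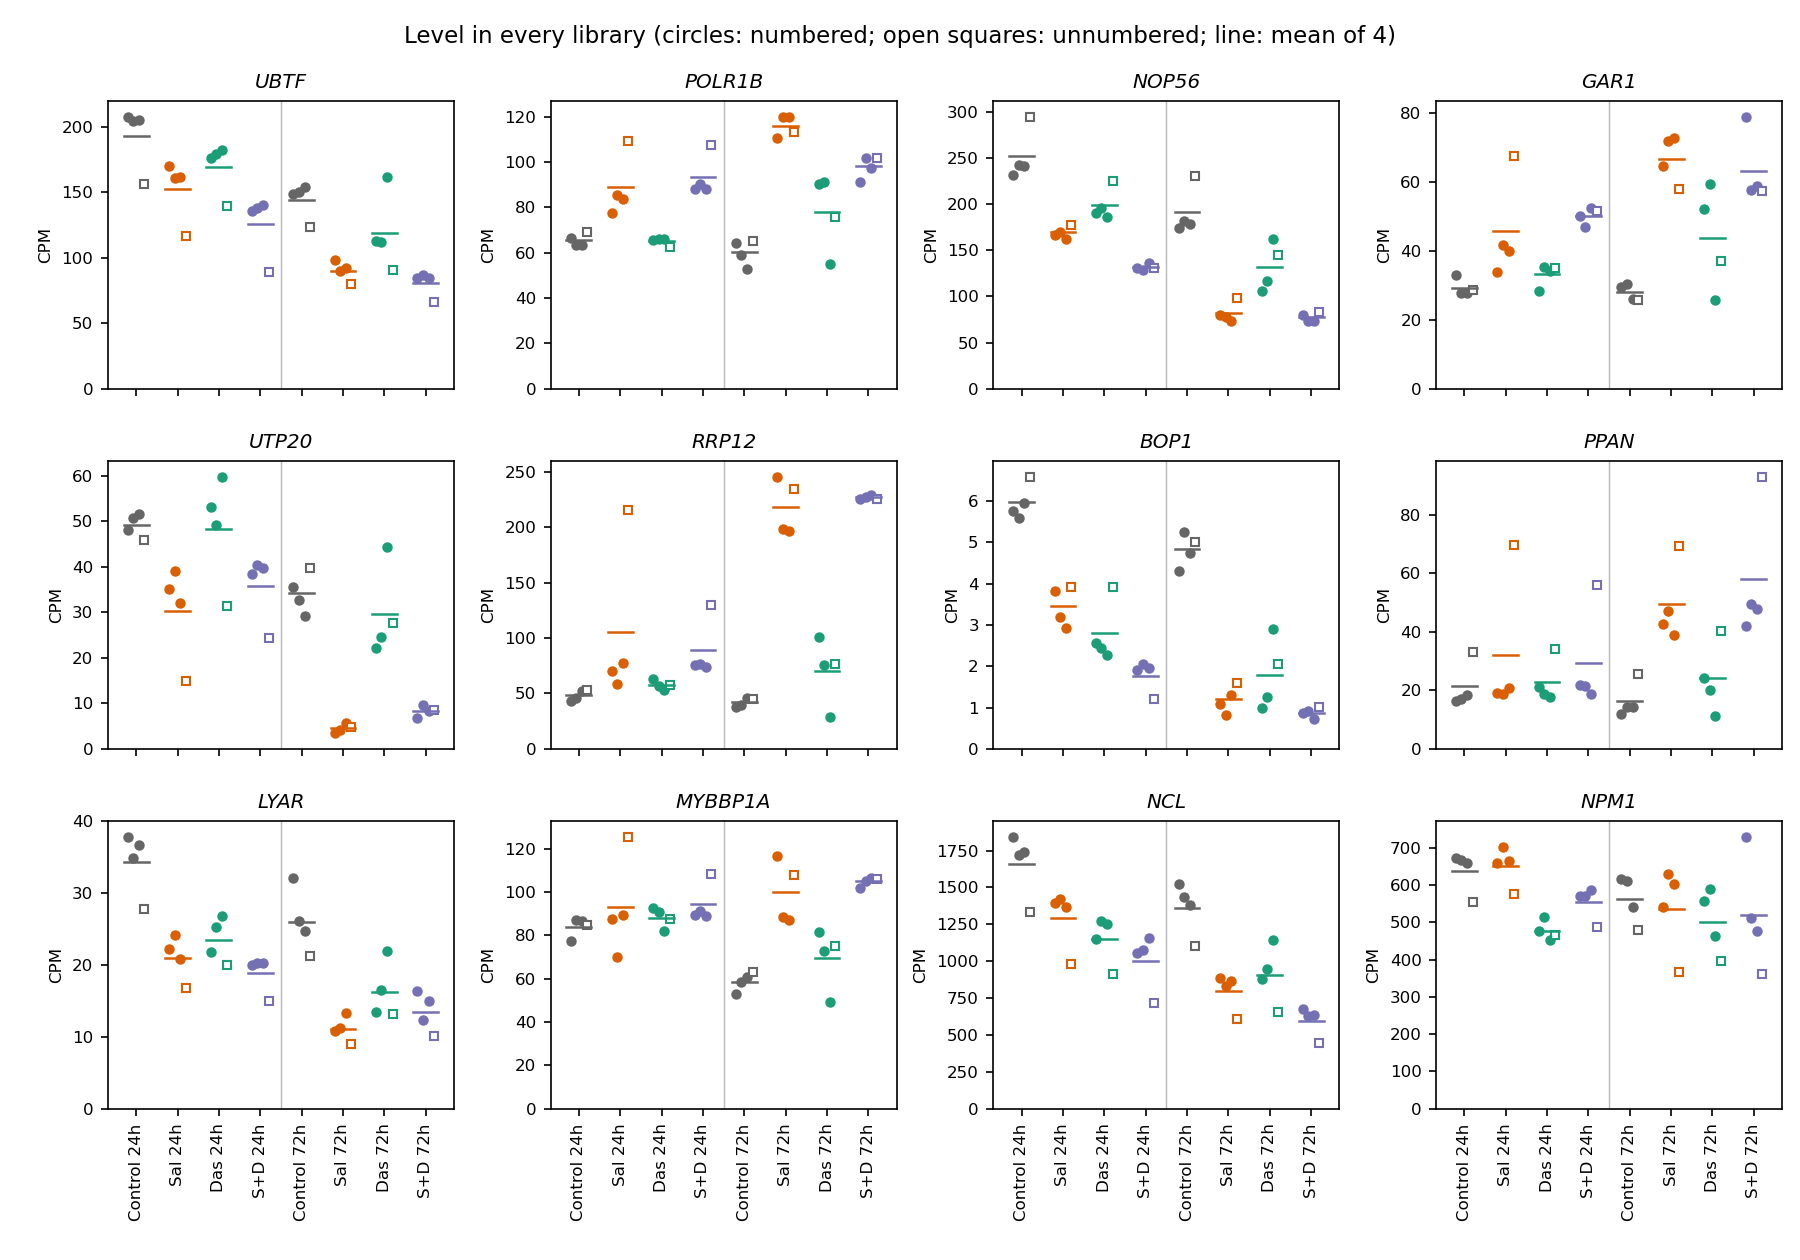
Level of 12 of the genes in CPM on the vertical axis, from 0, in every library of the 8 conditions on the horizontal axis, with filled circles for numbered libraries, open squares for unnumbered ones and lines for the mean of 4. UTP20 stands at 3.40 to 5.56 CPM in the Sal libraries at 72 h against 29.1 to 39.8 CPM in control, and RRP12 at 196 to 245 CPM against 37.8 to 46.2 CPM.

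In 60S assembly 6 genes rose and 4 fell with Sal at 72 h. BOP1, a subunit of the PeBoW complex that matures the large subunit RNA, was at 4.32, 5.26, 4.75 and 5.01 CPM in control, 1.09, 0.83, 1.31 and 1.6 after Sal, 0.995, 1.25, 2.89 and 2.06 after Das and 0.864, 0.917, 0.716 and 1.01 after S + D. Every treated library was below every control. It fell 4.03-fold with Sal (log2 fold change -2.01 ± 0.28 SE, adjusted p = 9.1e-06), 2.69-fold with Das (log2 fold change -1.43 ± 0.27 SE, adjusted p = 0.000855) and 5.56-fold with S + D (log2 fold change -2.47 ± 0.29 SE, adjusted p = 1.15e-06). WDR12, another PeBoW subunit, fell as well with Sal (-1.51), Das (-0.49) and S + D (-1.40), whereas PES1, the remaining one, rose with Sal (log2 fold change 0.98 ± 0.18 SE, adjusted p = 0.000142) and S + D (log2 fold change 0.97 ± 0.18 SE, adjusted p = 0.000153). PPAN, a factor of early 60S particles, was at 11.9, 14.3, 14.2 and 25.5 CPM in control, 42.6, 47, 38.7 and 69.3 after Sal, 24.2, 20.2, 11.3 and 40.4 after Das and 41.9, 49.4, 47.7 and 92.8 after S + D. Within each group the unnumbered library was the highest, and Sal and S + D libraries still exceeded all controls. PPAN rose with Sal (log2 fold change 1.57 ± 0.34 SE, adjusted p = 0.000673) and S + D (log2 fold change 1.80 ± 0.34 SE, adjusted p = 0.000194), and 49.2% of its exon bases also belong to PPAN-P2RY11 or P2RY11. The helicase DDX18 rose with Sal (1.49), Das (0.66) and S + D (1.26). EBNA1BP2, a 60S assembly scaffold, rose with Sal (1.08) and S + D (1.07), as did WDR74 (1.03 and 1.24, with 22.3% of exon bases shared) and the nucleolar GTPase GNL3 (0.52 and 0.51). NOP16 fell with all 3 treatments (-0.92 for Sal, -0.53 for Das and -0.55 for S + D), and MRTO4 with Sal (-0.53) and Das (-0.43). RRS1 and the RNA methyltransferase NOP2 were not called at 72 h, and 54.4% of the exon bases of NOP2 are shared with another gene.

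Among the abundant and multi-role nucleolar proteins 3 fell and 1 rose with Sal at 72 h. NCL (nucleolin), which binds ribosomal DNA and RNA, was at 1523, 1437, 1379.6 and 1104 CPM in control, 886, 831, 863 and 608 after Sal, 879, 947, 1147 and 655 after Das and 678, 628, 635 and 446 after S + D. All Sal and S + D libraries lay below all controls, and replicate 3 of Das lay within the controls. NCL fell with Sal (log2 fold change -0.79 ± 0.17 SE, adjusted p = 0.000713) and S + D (log2 fold change -1.21 ± 0.17 SE, adjusted p = 1.13e-05), and the value with Das was -0.59, below the call. NPM1 (nucleophosmin), a histone and ribosome chaperone, was at 617, 610.4, 540.2 and 479 CPM in control, 540.0, 628, 603 and 367 after Sal, 555, 589, 463 and 395 after Das and 728, 511, 477 and 362 after S + D. The 4 groups overlapped, and NPM1 was not called at 72 h (-0.09, -0.17 and -0.13). The table also lists 49 pseudogenes of NPM1, with which it may share reads. LYAR, a nucleolar zinc finger protein, was at 32, 26.1, 24.7 and 21.2 CPM in control, 10.8, 11.2, 13.3 and 8.97 after Sal, 13.4, 16.4, 21.9 and 13.2 after Das and 16.4, 12.4, 15 and 10.0 after S + D. It fell with Sal (log2 fold change -1.25 ± 0.19 SE, adjusted p = 2.33e-05) and S + D (log2 fold change -0.97 ± 0.19 SE, adjusted p = 0.000258), without overlap with control. MYBBP1A, a nucleolar protein known to bind the transcription factor MYB, was at 53.1, 58.3, 60.6 and 62.9 CPM in control, 117, 88.7, 87.1 and 108 after Sal, 81.5, 72.9, 49.4 and 75.2 after Das and 102, 105, 107 and 106 after S + D. It rose with Sal (log2 fold change 0.75 ± 0.14 SE, adjusted p = 0.000126) and S + D (log2 fold change 0.82 ± 0.14 SE, adjusted p = 5.11e-05), again without overlap. PA2G4 fell with both (-0.66 and -0.75, with 24.9% of exon bases shared), and the helicase DDX21 was not called (0.51 with Sal, adjusted p = 0.0109).

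Some partners of one complex thus changed their ratio. The pairs were chosen after their values were seen, and their ratios are given as a description. In control libraries at 72 h the level per kb of PES1 was 49.2 ± 5.12 times that of BOP1, and it was 410.0 ± 102 times with Sal and 542 ± 97.7 times with S + D. The size of this ratio rests on the uncertain level of BOP1. PES1 to WDR12 went from 7.46 ± 0.761 in control to 42.5 ± 10.1 with Sal and 38 ± 1.26 with S + D. In the H/ACA particle, GAR1 to DKC1 went from 0.2 ± 0.014 to 0.824 ± 0.108 and 0.83 ± 0.0802, and NHP2 to DKC1 from 0.846 ± 0.125 to 2.65 ± 0.393 and 3.82 ± 0.691. For box C/D, NOP58 to NOP56 went from 0.723 ± 0.154 to 1.93 ± 0.397 and 1.84 ± 0.367. In each pair the Sal and S + D libraries at 72 h all lay above the control libraries, which the choice of pairs favoured. No ratio was calculated for partners that moved alike, such as BOP1 with WDR12 or GAR1 with NHP2.

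**Figure D3:**
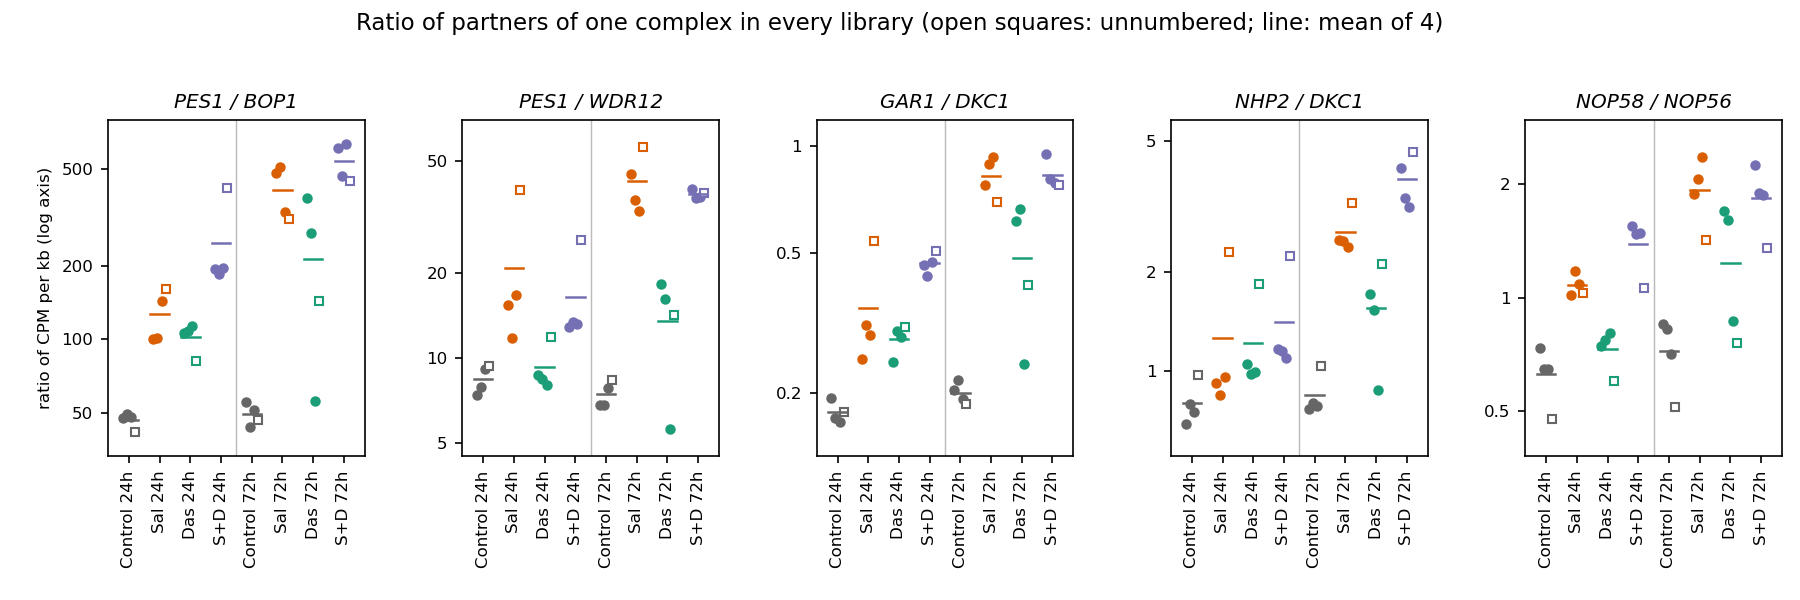
Ratio of CPM per kb between partners of one complex, on a log axis, in every library of the 8 conditions, with filled circles for numbered libraries, open squares for unnumbered ones and lines for the mean of 4. The pairs were chosen after their values were seen. At 72 h all ratios with Sal and S + D exceed those of control, while replicate 3 of Das lies at or near the control values, with PES1 to BOP1 at 55.8 against 43.6 to 55.3 in control.

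Das alone for 72 h lowered part of the group. By the edgeR quasi-likelihood test 9 genes fell and 1 rose, where 9.36% and 10.5% of all genes tested did. The largest falls among the called genes were those of BOP1 (-1.43), BYSL (-0.95) and DKC1 (-0.59), and DDX18 was the gene that rose (0.66). Of the 42 genes 9 fell with both Sal and Das at 72 h and 20 were called with Sal but not with Das, beside 8% and 36% of all genes, which is no test of a difference, and both were set against the same control libraries. Replicate 3 of Das held levels near the control for most of these genes, so the comparison was repeated without it. Then 10 genes fell and 7 rose, beside 13.2% and 14.6% of all genes in that fit, and those that rose were MYBBP1A (log2 fold change 0.39), POLR1B (0.52), PES1 (0.53), TAF1D (0.57), GAR1 (0.84), DDX18 (0.87) and RRP12 (1.01). Other libraries weighed on the count as well. It was 4 without control replicate 1, 3 without control replicate 2 or 3, and 2 without Das replicate 1 or 2. Whether calls over all genes fell alike in these fits is not shown here.

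Between S + D and Sal at 72 h none of the 42 genes was called by edgeR with all libraries and no further term, beside 3.01% of all genes, while 7 had an unadjusted p under 0.05 and DESeq2 called 1. The same test called 1 gene without the filter on low counts and 2 with a term for the unnumbered libraries. The widest differences were those of UTP20 (0.89, adjusted p = 0.014, with a 95% interval from 0.48 to 1.30) and TAF1D (0.49, adjusted p = 0.0529). S + D differed from Das in 17 genes, with 8 lower (17.7% of all genes) and 9 higher (14.3%). The lower ones were UTP20 (-1.85), BOP1, WDR12, NOP56, UTP4, NCL, UBTF and HEATR1, and the higher ones RRP12 (1.68), PPAN (1.26), WDR74 (1.10), NHP2 (1.02), EBNA1BP2 (0.91), RRP9 (0.78), PES1 (0.66), MYBBP1A (0.58) and RRN3 (0.42). Without Das replicate 3 the count was 11, beside 24.6% of all genes. The interaction term compares the log2 response to S + D with the sum of the responses to Sal and Das. At 72 h it was called for 3 genes, beside 7.52% of all genes, namely FBL (log2 difference 0.69 ± 0.16 SE, adjusted p = 0.00791), NOP16 (log2 difference 0.90 ± 0.19 SE, adjusted p = 0.00424) and MRTO4 (log2 difference 0.74 ± 0.16 SE, adjusted p = 0.00429). Each of these genes fell with both single drugs, and the value with S + D was less negative than the sum of the single values. This count rested on few libraries, being 13 without Das replicate 3 (14.5% of all genes), 1 without control replicate 2 or the unnumbered control, and 0 without Sal replicate 2 or 3 or Das replicate 1 or 2. Of 16 fits that each left out 1 library, 6 called FBL, 12 NOP16 and 10 MRTO4. With all libraries 15 genes had an unadjusted p under 0.05 for this term, and DESeq2 called 9. Counts in this paragraph without a share over all genes beside them do not show a change particular to the listed genes.

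Fewer of the 42 genes were called at 24 h. Sal lowered 7 of the 42 genes and raised 4, against 2.23% lower and 4.55% higher among all 16357 genes tested. BOP1 (-0.80), LYAR (-0.71), BYSL (-0.61), NOP56 (-0.59), RRS1 (-0.45), UTP4 (-0.42) and DKC1 (-0.33) fell. The genes that rose were DDX18 (0.70), PES1 (0.66), POLR1B (0.43) and GNL3 (0.27). RRP12 was at 43.2, 46.2, 51.7 and 53.4 CPM in control and 69.9, 58.7, 77.7 and 215 with Sal. All Sal libraries were above the controls and the unnumbered one by far the most, and RRP12 was not called (1.09, adjusted p = 0.0268). UTP20 was at 48.2, 50.7, 51.7 and 45.8 CPM in control and 35.1, 39, 32 and 15 with Sal, below all controls, and was not called either (adjusted p = 0.0773). NOP56 was at 232, 242, 242 and 294 CPM in control and 167, 170.2, 162 and 178 with Sal, without overlap. With the replicate number as a block, 15 genes fell and 6 rose, beside 8.71% and 9.97% of all genes, and in numbered libraries alone 16 fell and 6 rose, beside 10.9% and 12.7%. Leaving out the unnumbered Sal library gave 8 lower and 1 higher (1.42% and 3.81% of all genes), with DDX18 the one that rose. The total of 11 became 1 without control replicate 1 or 3, 2 without control replicate 2, 4 without the unnumbered control or Sal replicate 3, and 6 without Sal replicate 2. Whether calls over all genes fell alike in these last fits is not shown here.

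Das for 24 h lowered BOP1 (-1.07), DKC1 (-0.49), NPM1 (-0.40) and NOP56 (-0.32), and raised none of the 42 genes. These were 4 lower and 0 higher by edgeR, against 6.88% and 6.99% of all genes. In both directions together 14 genes had an unadjusted p under 0.05, and DESeq2 called 6. NPM1 was at 673, 667, 659 and 553 CPM in control and 477, 514, 452 and 467 with Das, with every Das library below every control, and it was not called in any other comparison with a control. With the replicate block 9 genes were called, all lower, beside 14% of all genes lower, and in numbered libraries alone 13 fell and 1 rose, beside 18.7% and 20.6%. The count was 2 without control replicate 1, 2 or 3 or Das replicate 1 or 3. S + D for 24 h lowered 13 genes and raised 7, against 16.5% and 17.1% of all genes, and BOP1 passed both cutoffs (log2 fold change -1.72 ± 0.20 SE, adjusted p = 3.74e-06), beside 6.06% of all genes. In numbered libraries alone 21 fell and 11 rose, beside 29.4% and 28.7% of all genes. The next largest falls were those of NOP56 (-0.91), BYSL (-0.84) and LYAR (-0.82). GAR1 (0.81), DDX18 (0.71), TAF1D (0.62), PES1 (0.60), POLR1B (0.55), GNL3 (0.54) and NOB1 (0.32) rose. TAF1D was at 81.2, 79, 73.4 and 93 CPM in control, 74.5, 97.1, 76.1 and 86.7 after Sal, 83.3, 92.4, 81.6 and 99.9 after Das and 123, 109, 122 and 137 after S + D. Only the S + D libraries all exceeded those of each other group at 24 h. S + D differed from Sal in 4 genes (12.9% of all genes), with BOP1 (-0.92) and DKC1 (-0.26) lower and TAF1D (0.60) and GNL3 (0.27) higher. It differed in 8 with the replicate block (27.6% of all genes) and in 11 in numbered libraries alone (41.4%). The count was 2 without Sal replicate 3 or S + D replicate 1, 2 or 3. Counts in this paragraph without a share over all genes beside them do not show a change particular to the listed genes.

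Against Das, S + D at 24 h was lower in BYSL (-0.61) and NOP56 (-0.58) and higher in DDX18 (0.72), POLR1B (0.54), TAF1D (0.47), TSR1 (0.45) and GNL3 (0.39), which is 7 genes beside 8.49% of all genes. The replicate block gave 17 (22% of all genes) and numbered libraries alone 25 (32.9%). The count was 3 without Das replicate 1, 2 or 3 or S + D replicate 1, and 4 without the unnumbered Das library or S + D replicate 3. The interaction of Sal and Das at 24 h was called by edgeR for none of the 42 genes with all libraries and no further term, beside 0.0306% of all genes, while 3 had an unadjusted p under 0.05 and DESeq2 called 0. The same test called 1 with a term for the unnumbered libraries (1.42% of all genes) and 2 in numbered libraries alone (5.09%). For the counts here that have no share over all genes, a change particular to the listed genes is not shown.

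Several responses grew with time. Of the 42 genes 6 fell and 4 rose with Sal at both times, 20 were called at 72 h alone and 1 at 24 h alone. With the replicate number as a block more of the 42 genes were called with Sal at 24 h, so the count at 72 h alone depends on the fit. Of all genes tested at both times 2.1% fell and 4.4% rose at both, 46.5% were called at 72 h alone and 0.374% at 24 h alone. The difference between the responses at 72 and 24 h was itself called for 8 genes, with 7 lower (13.7% of 17227 genes tested) and 1 higher (8.21%). UTP20 showed the largest difference (log2 difference -2.24 ± 0.34 SE, adjusted p = 1.15e-05), followed by BOP1 (-1.21), BYSL (-1.14), WDR12 (-1.0), UTP4 (-0.79), NOP56 (-0.65) and DKC1 (-0.46). EBNA1BP2 was the one that rose more at 72 h (log2 difference 0.92 ± 0.21 SE, adjusted p = 0.00131). Without the unnumbered Sal library at 24 h the count was 17, with 7 lower and 10 higher (15.5% and 12.6% of all genes), among them RRP12 (difference 1.87 on the log2 scale). In numbered libraries alone it was 22, with 8 lower and 14 higher, beside 22.4% and 16.9%. With S + D the difference was called for 5 genes, beside 16.3% of all genes. UTP20 (-1.59), WDR12 (-1.06) and UTP4 (-0.71) were lower at 72 h, and RRP12 (1.55) and EBNA1BP2 (1.21) higher. The count was 9 without the unnumbered S + D library at 24 h and 14 in numbered libraries alone (31.5% of all genes). For Das edgeR called no difference between the times, beside 0.226% of all genes, with 6 genes at an unadjusted p under 0.05 and 0 called by DESeq2, and 1 gene (DDX18, 0.89) was called without Das replicate 3 at 72 h. Where no share over all genes stands beside a count here, a change particular to the listed genes is not shown.

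**Figure D4:**
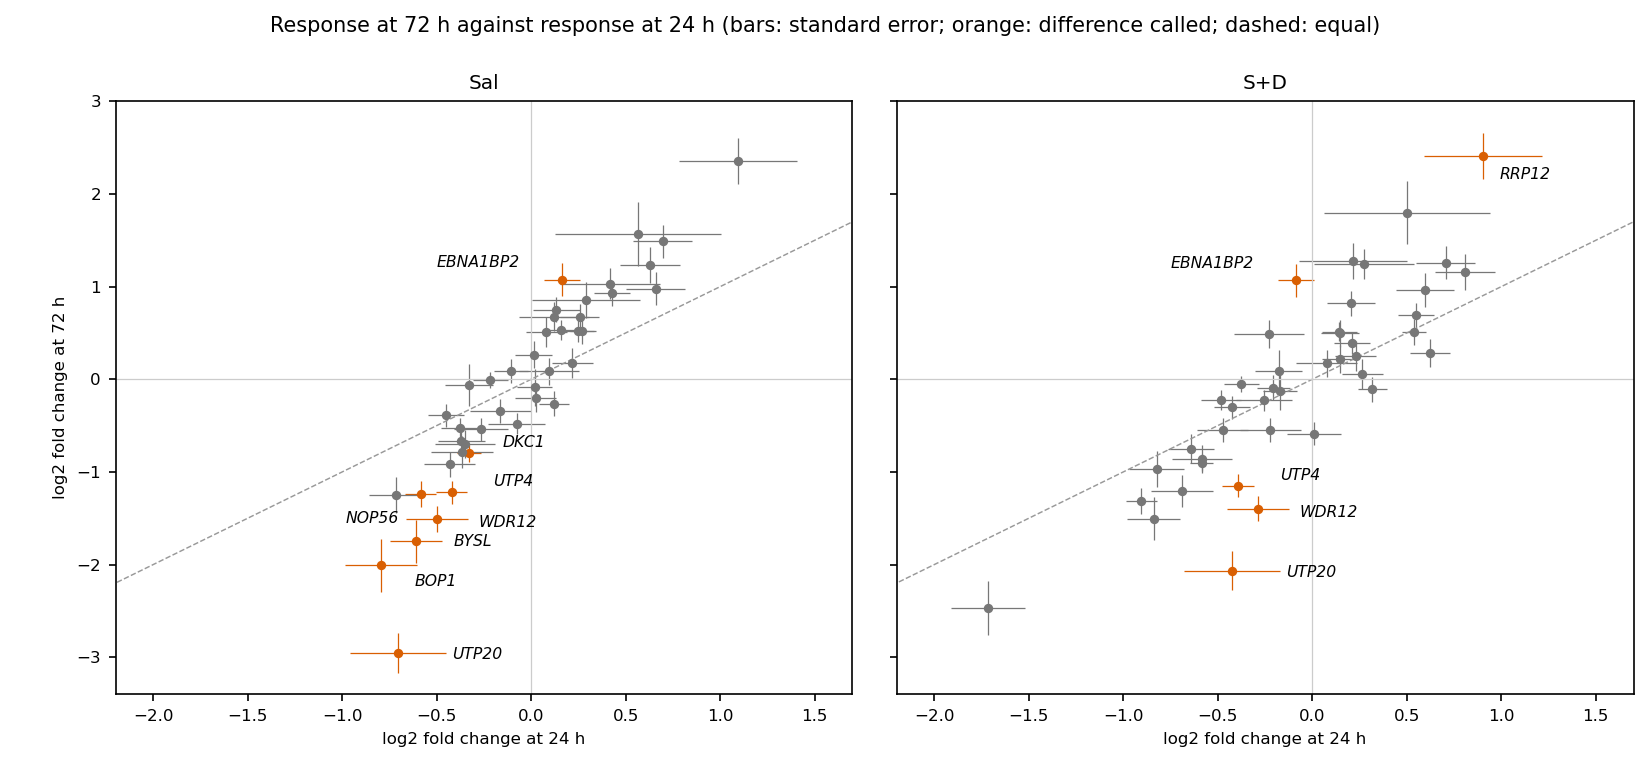
Log2 fold change at 72 h on the vertical axis against that at 24 h on the horizontal axis for the 42 genes, with Sal on the left, S + D on the right, bars for standard errors, a dashed line for equal responses and named orange points for genes whose difference was called. UTP20 lies at -0.70 and -2.96 with Sal, the farthest below the line.

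Other genes of the pathway, from lists of known members, were compared in the same fits. Of all genes tested 26.3% rose and 26.8% fell with Sal at 72 h, and 27% rose and 27.9% fell with S + D. Other 40S assembly genes rose more often than they fell with Sal at 72 h, since 22 of 42 tested rose and 4 fell, with a median log2 fold change of 0.53 beside -0.04 for the 42 genes and 0.004 for all genes. The 4 that fell were DHX37 (-1.07), PWP2 (-1.06), RRP7A (-0.98) and RRP36 (-0.52). With S + D 22 rose and 5 fell (median 0.41). Of 42 other 60S assembly genes 8 rose and 7 fell with Sal (median 0.13), and 8 rose and 5 fell with S + D (median 0.19). Other Pol I genes went mostly down with Sal. Of these 10 genes 6 fell, TCOF1 (-2.11), which supports Pol I transcription, the most, and 1 rose (TAF1A, 0.57), with a median of -0.49, and 6 fell and 1 rose with S + D (median -0.45). Among 10 tested genes of snoRNP assembly factors, SHQ1 (0.58) rose and RUVBL1 (-0.54) and NUFIP1 (-0.89) fell with Sal, while 2 rose and 2 fell with S + D.

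Genes of the nuclear exosome, which trims precursor RNA, were called in both directions. DIS3 (1.48), EXOSC1 (1.44) and MTREX (0.36) rose with Sal at 72 h, and EXOSC9 (-1.81), MPHOSPH6 (-1.60) and EXOSC2 (-1.34) fell. These were 3 and 3 of 14 genes, beside 26.3% and 26.8% of all genes. With S + D 2 rose and 3 fell. The cytosolic ribosomal proteins, the products that these factors assemble into subunits, were mostly not called with Sal. Of 76 tested, 4 rose and 3 fell (median -0.10), namely RPS27 (0.91), FAU (0.71), RPS13 (0.66) and RPL10 (0.54) upwards and RPS15 (-0.61), RPL36 (-0.58) and RPLP1 (-0.46) downwards. With S + D 15 of them rose and 0 fell by edgeR (median 0.32), beside 27% higher and 27.9% lower among all genes. In either direction 34 had an unadjusted p under 0.05 and DESeq2 called 17, with no share over all genes shown for these counts. Their summed share of counts was 2.53 ± 0.146% in control, 2.57 ± 0.0567% with Sal and 3.48 ± 0.564% with S + D at 72 h. All 10 proliferation markers fell with Sal (median -2.65) and with S + D (median -3.11). In the same Sal libraries 15 of the 42 genes rose, beside 26.3% of all genes, and the part of proliferation in the changes was not tested.

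**Figure D5:**
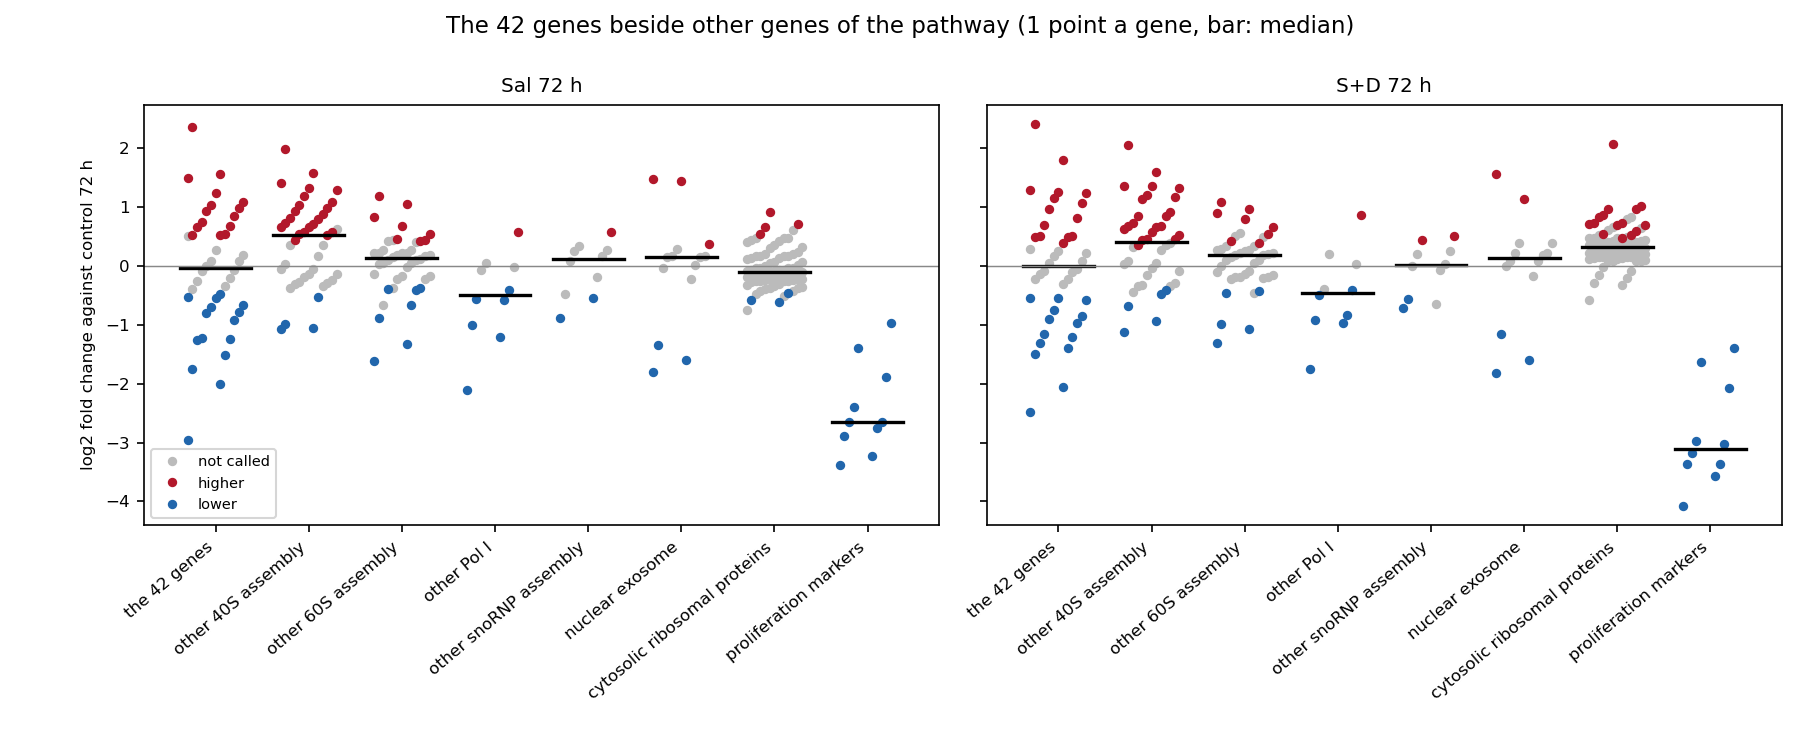
Log2 fold change against control at 72 h with Sal (left) and S + D (right) for the 42 genes, other lists of the pathway and proliferation markers, with 1 point per gene (red called higher, blue called lower, grey not called) and a black bar at the median of each list. The 42 genes spread on both sides of 0, other 40S assembly genes lie mostly above it and all 10 proliferation markers below it.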

How the data were processed

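RNA-seq counts per gene were deposited by the authors as whole, not normalized numbers in 1 table of 32 libraries, 16 per time point. The submitters' processing notes name bcl2fastq 2.19, STAR 2.5.2, Cufflinks 2.1.1, DESeq2 and the build GRCh37. The counting program, annotation and use of strand are not given in the sources used here, so that reads shared by overlapping or repeated genes may be lost or misplaced.

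The 16 libraries of a time point (all 32 for differences between times) were fitted with edgeR 4.0.16 under R 4.3.3, with TMM scaling, filterByExpr at a minimum count of 10 and the quasi-likelihood test. P-values were adjusted by Benjamini-Hochberg over all genes tested, and genes were called at an adjusted p under 0.01. The cutoffs of the study add an absolute log2 fold change above 1.5. CPM used TMM-scaled library sizes, and CPM per kb the transcript length of the annotation. DESeq2 1.42.0, other scaling, no filter, a term for the unnumbered libraries and leaving out each library were the alternatives. The scripts were tested on simulated data. Same-numbered libraries deviated together at 24 h (lowest Pearson's r 0.254), so the fit with the replicate number as a block is given beside 24 h results where it moved a count. At 72 h they did not all do so.

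Libraries were grouped by the labels. The 42 genes and the other gene lists were chosen with earlier results of these data known. Library values are given for NCL, NPM1, FBL, UBTF, RRN3, TAF1D and, in each role, for the genes with the lowest and highest log2 fold change with Sal at 72 h. PES1, WDR12, DKC1, NHP2, NOP58 and BYSL, and single genes of other lists, were singled out after their values were seen.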

Additional observations from a re-analysis of the deposited data

Results flagged for a closer look

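The level of single genes, and the share of counts of all 42, was examined in each group of 4 libraries for 1 library whose gap to the nearest other, divided by the range, exceeded Dixon's critical value for 4 libraries. Chance alone does this in about 1 in 20 groups. Of 168 groups 37 held such a library, and in 33 of them it was the unnumbered one. The genes were measured in the same 32 libraries, so the groups are not independent. The count of 37 therefore cannot be weighed against 1 in 20.

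At 24 h the unnumbered library was the lowest of its group for UBTF, with 156 CPM in control, 117 after Sal, 139 after Das and 89.3 after S + D. It was also the lowest for NCL with Sal (985 CPM), for NPM1 in control (553) and with S + D (486), for POLR1B with Das (62.6), for UTP20 (24.4) and LYAR (15) with S + D, and for WDR12 with Das (58.9) and S + D (41.9). It was the highest for FBL in control (307 CPM) and with S + D (270), for NOP56 in control (294), for POLR1B (108), MYBBP1A (108) and PES1 (310.0) with S + D, and for BYSL with Das (45.6). RRP12 stood at 215 CPM in the unnumbered Sal library against a median of 69.9 in the others, and at 130.0 CPM with S + D. PPAN stood at 33.2 CPM in control, 69.5 with Sal and 55.8 with S + D, and NHP2 at 221 after Sal, 160.0 after Das and 175 after S + D. At 72 h the unnumbered library was the lowest for UBTF in control (123 CPM) and with S + D (66.2), and the highest for NOP56 (231) and NHP2 (110.0) in control and for PPAN with S + D (92.8). The share of counts of the 42 genes was lowest, at 0.561%, in the unnumbered Sal library at 72 h, against a median of 0.644% in the others.

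Numbered libraries stood apart in 4 groups. Replicate 1 was the highest for FBL (314 CPM) and GAR1 (78.9 CPM) with S + D at 72 h and for GAR1 in control at 24 h (33 CPM), and replicate 3 for WDR12 with Das at 72 h (63.1 CPM).

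Responses at 72 and 24 h differed by the test of the difference itself. With Sal the difference on the log2 scale was -0.65 for NOP56, -0.46 for DKC1, -0.79 for UTP4, -2.24 for UTP20, -1.14 for BYSL, -1.21 for BOP1, -1.0 for WDR12 and 0.92 for EBNA1BP2. With S + D it was -0.71 for UTP4, -1.59 for UTP20, 1.55 for RRP12, -1.06 for WDR12 and 1.21 for EBNA1BP2.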

How the results depend on the processing

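The counts for Sal and S + D against control at 72 h stayed within 1.5 times of 30 and 29 under every alternative, and 29 of the 30 genes called with Sal and 24 of the 29 with S + D were called in all of them. No count and no called value reversed, while uncalled values could change sign, as NHP2 (0.29 to -0.10) and PPAN (0.57 to -0.12) for Sal at 24 h once its unnumbered library was left out. At an adjusted p under 0.05, Das gave 8 genes at 24 h and 18 at 72 h, S + D against Das at 24 h 14, S + D against Sal at 72 h 1, the interaction at 72 h 11, the time difference 13 for Sal and 13 for S + D, and control between times 6. Without a filter on low counts Sal at 24 h gave 5, Das at 24 h 2, S + D against Sal 2 at 24 h and 1 at 72 h. With the replicate block the counts were 21 for Sal, 9 for Das, 8 for S + D against Sal and 17 for S + D against Das at 24 h, 2 for S + D against Sal and 8 for the interaction at 72 h, and 17, 14 and 9 for the time differences of Sal, S + D and control. The block moved no other count by over 1.5 times. With a term for the unnumbered libraries they were 21, 9, 9, 21, 2, 8, 17, 13 and 9 in the same order, and the interaction at 24 h gave 1. In numbered libraries only, Sal gave 22, Das 14, S + D 32, S + D against Sal 11, S + D against Das 25 and the interaction 2 at 24 h, and the time differences 22 (Sal), 14 (S + D) and 7 (control). All 32 libraries in 1 fit gave 6 for Sal and 3 for S + D against Das at 24 h and 7 for the interaction at 72 h. Only the groups compared gave 1 for Sal and 0 for S + D against Sal at 24 h, 3 for Das and 10 for S + D against Das at 72 h. DESeq2 gave 11 for S + D against Das at 24 h, 1 for S + D against Sal and 9 for the interaction at 72 h, 9 for the time difference of S + D and 4 for control. The causes were not tested. Counts in this section stand without the share of all genes called in the same fit, which the Results give for some settings only. At an adjusted p under 0.05 no such share is shown. Where it is missing, whether calls over all genes moved alike is not shown. Those counts therefore do not show a change particular to the listed genes. The same holds for counts without 1 library in the Results that have no share beside them. Leaving out each library gave, at 24 h, 1 to 9 for Sal, 2 to 4 for Das, 16 to 19 for S + D, 2 to 6 and 3 to 6 for S + D against Sal and Das, and 0 for the interaction. At 72 h it gave 29 to 31, 2 to 17, 25 to 29, 0, 11 to 16 and 0 to 13 in the same order, and for time 7 to 17 (Sal), 0 to 1 (Das), 4 to 9 (S + D) and 1 to 2 (control). Under other settings 1483 values kept their call or stayed uncalled within their standard error. A further 86 lost the call, 64 gained one and 2 uncalled ones moved beyond their standard error. Without 1 library 1486 kept their call or stayed uncalled in this way, 265 lost it, 13 gained it and 12 moved. These are values of single genes, but the 1483 also hold medians of the listed genes, for which no call exists. For uncalled values the sign could differ. Depth limits BOP1, with at most 280 counts in a library.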
